A study of Mus musculus with 6 samples.

Results

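The integrin and laminin genes of the mouse spinal cord were taken from the deposited gene counts by name. They are the protein-coding genes whose symbols begin with Itga, Itgb or Lama, Lamb and Lamc and name a subunit, with at least 30 reads over all libraries. Of 39 genes that matched by name, Itgb6 had fewer reads, which left 38 members among the 35275 genes of the table, namely 27 integrin genes and 11 laminin genes. One of the 27, Itgbl1, encodes an integrin-like secreted protein and no receptor subunit. RNA of the whole spinal cord was compared between 3 Sox2 cKO mice, labelled mGfap-Cre:Sox2fl/fl, and 3 Ctrl mice, to ask which genes depend on SOX2 in astrocytes. The labels give the Ctrl genotype as mGfap-Cre:Sox2+/+, the series design allows either mGfap-Cre or Sox2fl/fl, and the methods name Sox2fl/fl littermates, so whether the controls carried Cre is not settled by these sources. All mice were of the C57BL/6 strain and untreated, and their age is given as postnatal day 90 in the labels and day 80 in the protocol. In the Cre line used, the mouse Gfap promoter drives recombination in most astrocytes, and all other cells of the cord were sequenced with them. Both sexes were in each group and were not told apart here.

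Integrins are receptors in the cell membrane, each made of 1 alpha and 1 beta subunit, that tie the cytoskeleton to the matrix outside the cell. Laminins are matrix proteins, each made of an alpha, a beta and a gamma chain, and they form the base of the basement membrane around vessels and under the pia, where astrocyte endfeet attach. Astrocytes are known for the integrin of Itgav and Itgb8, which releases active TGF-beta from its latent form, and for laminin receptors with Itgb1.

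SOX2 is a transcription factor, and the study's list of its strongest binding sites, made from adult cerebral cortex and not from spinal cord, names Itgav as a nearest gene and no other member. The promoter of Itgav is therefore shown first, followed by those of the subunits that pair with it and changed, Itgb8 and Itgb5, and of Itga10, the member that rose. The sequences are from RefSeq, build GRCm38.p6, with 250 bases before and 50 bases after the transcription start, 5′ to 3′ on the strand of the gene. In the order shown they lie on the plus strand at chr2:83724147-83724446, the minus strand at chr12:119238227-119238526, the plus strand at chr16:33829415-33829714 and the plus strand at chr3:96645334-96645633. The study gives CAAAG and its variants as the canonical SOX2 motif. Capitals mark each match to CAAAG on either strand. In Itgav they also mark the 11 bases of a motif that the study lists at this site, from 188 to 178 bases before the start.
Itgav: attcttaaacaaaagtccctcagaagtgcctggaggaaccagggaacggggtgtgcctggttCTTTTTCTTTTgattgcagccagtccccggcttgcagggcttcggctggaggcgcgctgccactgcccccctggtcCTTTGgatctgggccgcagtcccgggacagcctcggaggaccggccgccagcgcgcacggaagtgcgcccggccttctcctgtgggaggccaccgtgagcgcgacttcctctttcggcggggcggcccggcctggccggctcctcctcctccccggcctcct
Itgb8: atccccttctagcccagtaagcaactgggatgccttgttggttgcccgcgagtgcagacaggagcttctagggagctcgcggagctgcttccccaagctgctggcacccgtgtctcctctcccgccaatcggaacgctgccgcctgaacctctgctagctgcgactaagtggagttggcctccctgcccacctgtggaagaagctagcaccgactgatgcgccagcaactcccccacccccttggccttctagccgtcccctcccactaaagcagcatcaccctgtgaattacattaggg
Itgb5: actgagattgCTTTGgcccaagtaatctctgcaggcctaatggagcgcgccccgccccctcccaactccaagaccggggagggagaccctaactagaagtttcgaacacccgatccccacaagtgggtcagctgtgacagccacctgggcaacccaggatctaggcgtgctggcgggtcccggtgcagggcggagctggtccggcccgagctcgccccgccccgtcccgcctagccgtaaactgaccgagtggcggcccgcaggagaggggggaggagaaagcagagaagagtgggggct
Itga10: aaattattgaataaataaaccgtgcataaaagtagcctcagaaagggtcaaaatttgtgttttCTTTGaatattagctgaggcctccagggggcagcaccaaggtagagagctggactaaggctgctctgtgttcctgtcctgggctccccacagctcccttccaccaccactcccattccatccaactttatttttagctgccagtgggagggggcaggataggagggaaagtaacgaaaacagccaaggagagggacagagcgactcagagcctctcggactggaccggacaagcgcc

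All 4 windows were searched for CAAAG on both strands but not for its variants, and the match in Itgav does not overlap the listed motif. Itgav, Itgb5 and Itga10 held 1 match each, on the strand opposite to the gene, and the window of Itgb8 held 0. The motif is in 53.9% of all 32851 promoters of the table, and in 13 of the 24 member promoters that the table holds, so a match does not set these genes apart. The RefSeq start of Itgb8 lies 494 bases from the nearest start in GENCODE M21, whereas those of the other 3 genes are at the same base.

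Libraries are called by the numbers in their column names, Ctrl 2, 4 and 6 and Sox2 cKO 1, 3 and 5, and held from 21507911 to 28392184 counted reads. Levels are given as CPM, the count scaled to a common library size after TMM normalization. The quasi-likelihood test of edgeR was used, with Benjamini-Hochberg adjustment at 0.05 over the 16137 genes that passed its filter on low counts. Nothing states that the mice came from separate litters, so p-values measure the spread between these 6 libraries. Sox2 itself was at 19.9, 14.8 and 29.5 CPM in Ctrl and at 3.16, 2.69 and 2.98 CPM in Sox2 cKO, a log2 fold change of -2.86 with a standard error (SE) of 0.24 (edgeR adjusted p = 0.00096). The exact permutation test, two-sided, gave p = 0.1 for Sox2, the least that 3 libraries against 3 can give. The astrocyte markers were present in every library, and 5 of the 10 were lower in Sox2 cKO and 0 higher. Their summed level was 8935 to 11195 CPM in Ctrl and 6764 to 7025 CPM in Sox2 cKO. In whole tissue, fewer cells of a type and less RNA per cell cannot be told apart.

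Of the 38 members, 36 passed the filter, and Itgax and Itgb2l did not. Among these 36, 6 were lower in Sox2 cKO, namely Itgb8, Itga9, Lamc1, Itga6, Itgb5 and Itga2, and 1 was higher, Itga10. That is 16.7% lower and 2.78% higher, beside 12.4% lower and 12.2% higher among all genes tested and 24.6% in either direction. Integrins gave 5 of the lower calls and the 1 higher call among 25 tested, and laminins gave 1 lower call among 11. The median log2 fold change was -0.11 over the 36 members and 0.02 over all genes tested. The CPM ranges lay apart for 8 members that were lower in Sox2 cKO and for 2 that were higher, as they did for 22.1% and 22.6% of all genes tested. Most integrin and laminin genes thus had no called difference, and the share called, 19.4%, was near that of all genes. DESeq2 called 6 members lower and 1 higher, where it called 15.0% and 12.7% of the 15635 genes with an adjusted p. It called the same genes except that Lama5 took the place of Itga2, for which DESeq2 gave no adjusted p.

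Fold changes went with gene length in these libraries, and the members are long. Across all genes tested the Spearman correlation of log2 fold change with exonic length was -0.48, a description over genes that share the same 6 libraries, and across the 36 members it was -0.33. Members had exonic lengths from 2674 to 11388 bases with a median of 5193, against a median of 3060 over all genes tested. Over 20 bins of length, the median log2 fold change of all genes fell from 0.35 at a median length of 640 bases to -0.36 at 9460 bases. After a correction for this trend in each library, Itgb8, Itgb5, Itga9 and Itga2 were still called lower and Itga10 higher, beside 6.99% lower and 6.08% higher among all genes. Lamc1 and Itga6 were no longer called, with fold changes of -0.28 and -0.26 and adjusted p = 0.064 and 0.069 from edgeR. The median over the 36 members became 0.03. What gave rise to the trend was not tested.

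**Figure D1:**
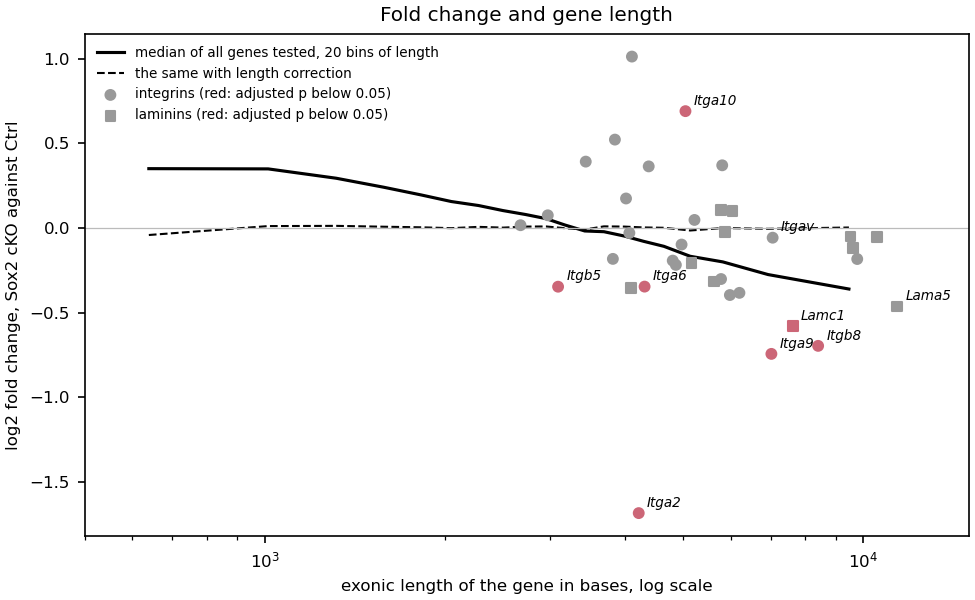
Log2 fold change of the 36 members tested against their exonic length in bases on a log scale, with circles for integrins and squares for laminins, and the median of all genes tested in 20 bins of length before (solid line) and after (dashed line) the correction. The solid line falls from 0.35 to -0.36, and Itga9, Itgb8 and Lamc1 lie below it at lengths from 7020 to 8403 bases.

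The levels per gene length, in FPKM as deposited, spanned a wide range in Ctrl. Itgb1, the beta subunit shared by most laminin, collagen and fibronectin receptors, was highest at 35.8 ± 2.08 FPKM (SD, n = 3), followed by Itgb5 at 30.2 ± 3.52, Itgb8 at 21.0 ± 2.99, Itgav at 13.0 ± 0.349 and Itga6 at 11.5 ± 0.502 FPKM. The ranges of the Ctrl libraries did not overlap between any of these neighbours in the order, nor between Itga6 and the next gene, Lamc1. Lamc1, Itgb4, Itga3 and Lamb2 followed between 9.86 and 9.35 FPKM, and no neighbours among them differed beyond their ranges. Itga7 at 5.67 ± 0.129 FPKM lay apart from its neighbours on both sides. From Itgb2 at 2.04 FPKM downwards to Itgb2l at 0.068 FPKM, each gene overlapped with the next. In Sox2 cKO, Itgb1 and Itgb5 again led with 33.8 ± 1.37 and 25.5 ± 2.29 FPKM, while Itgb8 at 13.9 ± 2.13 FPKM came down to the level of Itgav at 13.3 ± 1.27.

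**Figure D2:**
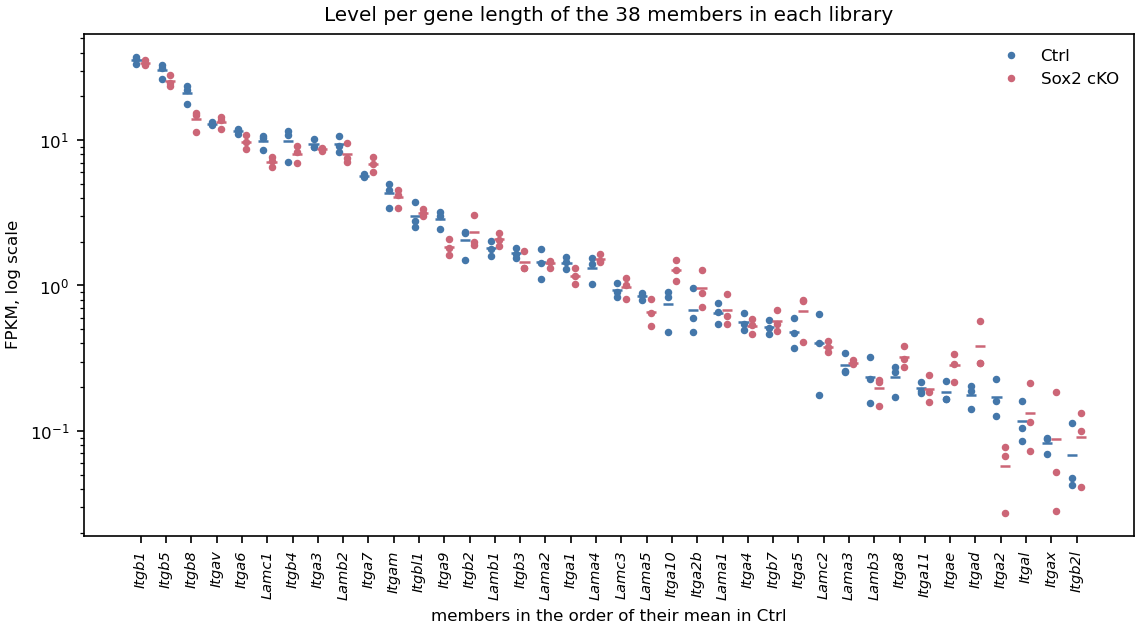
FPKM on a log scale of the 38 members in each library, in the order of their mean in Ctrl, with points for libraries (blue Ctrl, red Sox2 cKO) and short lines for group means. Itgb1, Itgb5, Itgb8, Itgav and Itga6 stand at the high end, from 35.8 to 11.5 FPKM in Ctrl, and Itgb2l is lowest at 0.068 FPKM.

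Among the 3 tested beta subunits that were grouped as partners of alpha v, 2, Itgb8 and Itgb5, were lower. The alpha subunit was not called. Itgb1, which can also pair with alpha v, was grouped apart as the shared beta subunit and was not called. Itgb8 (ENSMUSG00000025321), on the minus strand of chromosome 12 from 119158022 to 119238802 in mm10, was at 149.6, 191.7 and 209.2 CPM in Ctrl and at 90.9, 122.0 and 126.7 CPM in Sox2 cKO, each in the order of the library numbers as throughout. Every Sox2 cKO library lay below every Ctrl library, and the log2 fold change was -0.70 (SE 0.15, edgeR adjusted p = 0.0145), so that the level fell by 38.3%. With the length correction the fold change was -0.37 (edgeR adjusted p = 0.034). Itgb5 (ENSMUSG00000022817), whose protein pairs with alpha v in vitronectin receptors, was at 81.6, 100.8 and 108.1 CPM in Ctrl and 81.9, 74.4 and 72.2 CPM in Sox2 cKO. Its groups overlapped, since Sox2 cKO library 1 was level with Ctrl library 2, and its fold change was -0.35 (SE 0.11, edgeR adjusted p = 0.040). It was not called with upper quartile normalization, at -0.30 (edgeR adjusted p = 0.062), nor by limma on log2(FPKM + 1), at -0.23 (limma adjusted p = 0.13).

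Itgav (ENSMUSG00000027087), on chromosome 2 from 83724397 to 83806916 and beside the listed SOX2 site shown above, was at 94.9, 93.2 and 96.0 CPM in Ctrl. It was at 79.2, 94.0 and 99.8 CPM in Sox2 cKO, where library 1 was low and library 5 above all Ctrl libraries. The log2 fold change was -0.06 (95% interval -0.24 to 0.12, edgeR adjusted p = 0.67) and turned to 0.20 with the length correction (edgeR adjusted p = 0.099) and to 0.03 without Sox2 cKO library 1. The third beta subunit grouped with alpha v, Itgb3, named here after its values were seen, had a fold change of -0.30 (edgeR adjusted p = 0.15). The other subunits whose receptors read the RGD motif, Itga5, Itga8 and Itga2b, had fold changes from 0.36 to 0.39 with edgeR adjusted p from 0.31 to 0.36, and were likewise named after their values were seen.

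The ratio of FPKM within a library sets a beta subunit beside its alpha partner without the size of the library. Itgb8 over Itgav was 1.32, 1.73 and 1.83 in Ctrl and 0.963, 1.09 and 1.07 in Sox2 cKO. The groups did not overlap, and the mean of Sox2 cKO was 0.639 times that of Ctrl (exact two-sided permutation p = 0.1, adjusted 0.23 over the 18 ratios, sums and shares computed). These were chosen after the values were seen, and 0.1 is the smallest p the design allows. Itgb5 over Itgav was 1.96, 2.47 and 2.57 in Ctrl and 2.36, 1.81 and 1.65 in Sox2 cKO, which overlapped (exact permutation p = 0.2). The exonic lengths of Itgb8 and Itgav are close, 8403 and 7054 bases, while that of Itgb5 is 3090 bases.

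**Figure D3:**
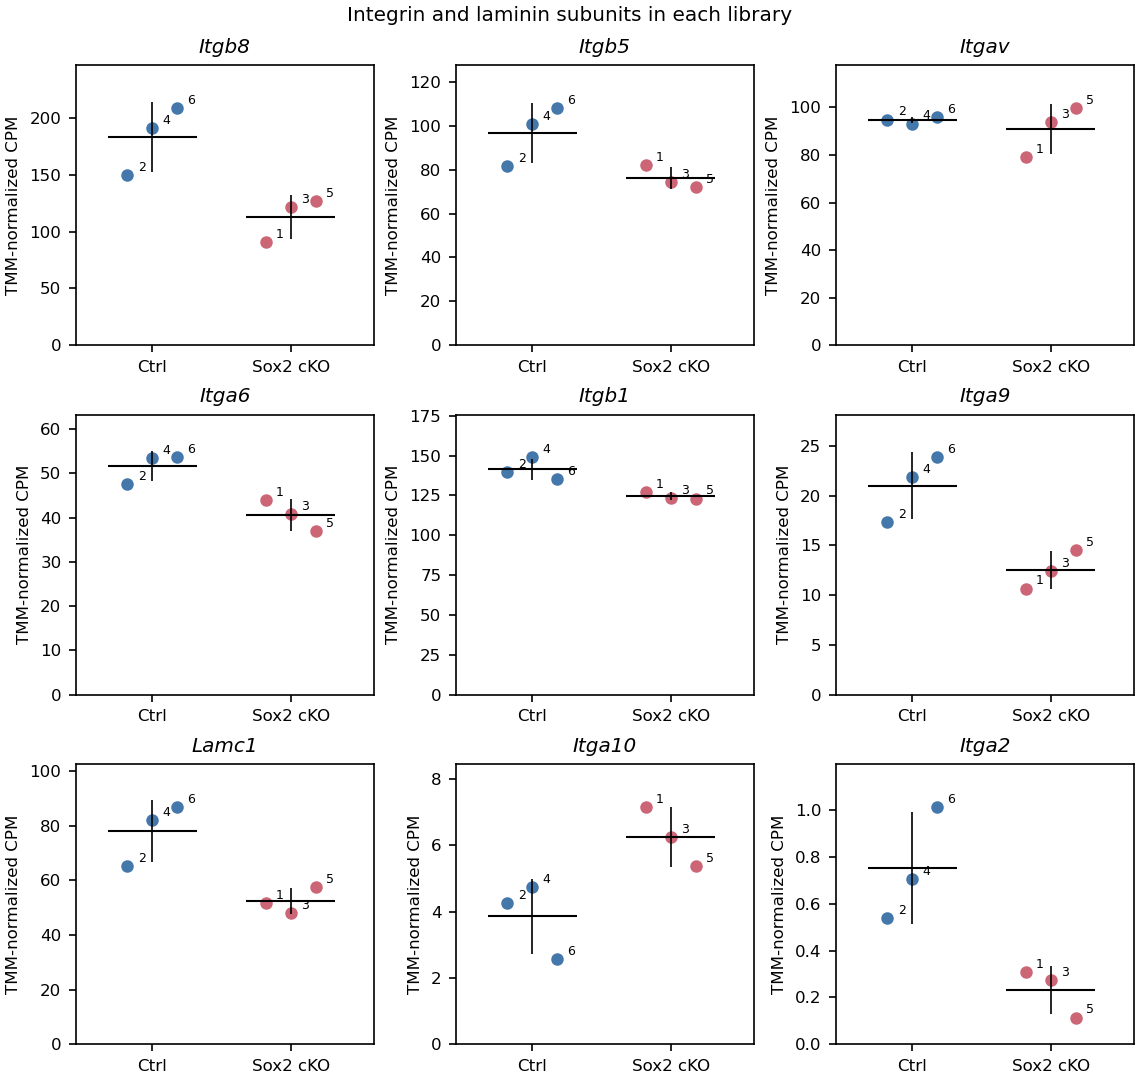
TMM-normalized CPM of 9 subunits in each library (blue Ctrl, red Sox2 cKO, numbers are library numbers), with the group mean as a horizontal line and the SD (n = 3) as a vertical line. Itgb8, Itga9, Lamc1, Itga6, Itga2 and Itgb1 do not overlap between groups and are lower in Sox2 cKO, Itga10 does not overlap and is higher, and Itgb5 and Itgav overlap.

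Of the 4 subunits of laminin receptors, 1 was called, and 3 of 4 fold changes were below 0. Among all genes tested 24.6% were called and 7753 of 16137 fold changes were below 0. Among the 36 members, 24 fold changes were below 0. With the length correction 0 of these 4 subunits were called. Itga6 (ENSMUSG00000027111), which forms laminin receptors with Itgb1 or Itgb4, was at 47.6, 53.5 and 53.6 CPM in Ctrl and 44.0, 40.8 and 36.9 CPM in Sox2 cKO. The groups did not overlap, with a log2 fold change of -0.35 (SE 0.09, edgeR adjusted p = 0.0255). Itga7, another alpha subunit of laminin receptors, was at 22.5, 23.4 and 24.8 CPM in Ctrl and 29.2, 26.6 and 24.1 CPM in Sox2 cKO, where only library 5 fell among the Ctrl values. Its fold change was 0.17 (95% interval -0.02 to 0.37, edgeR adjusted p = 0.21). Itga7 over Itga6 in FPKM was 0.508, 0.471 and 0.496 in Ctrl and 0.713, 0.700 and 0.700 in Sox2 cKO, a gap much larger than the spread within either group. The mean ratio was 1.43 times higher in Sox2 cKO (exact permutation p = 0.1, adjusted 0.23 over the 18 quantities), and the exonic lengths of 4013 and 4310 bases are close. The summed FPKM of Itga3, Itga6 and Itga7 was 26.6 ± 1.10 in Ctrl and 25.3 ± 2.12 in Sox2 cKO (SD, n = 3), and the groups overlapped.

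Itgb1 (ENSMUSG00000025809), the partner of all of these alpha subunits, was at 139.7, 148.8 and 135.5 CPM in Ctrl and 127.2, 123.4 and 123.1 CPM in Sox2 cKO. All Sox2 cKO libraries lay lower, but the fold change of -0.18 (95% interval -0.33 to -0.03) was not called (edgeR adjusted p = 0.10). Itga3 and Itgb4, named after their values were seen, had fold changes of -0.22 and -0.38 (edgeR adjusted p = 0.083 and 0.14), and Itgb4 ranged from 43.8 to 75.5 CPM within Ctrl alone.

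**Figure D4:**
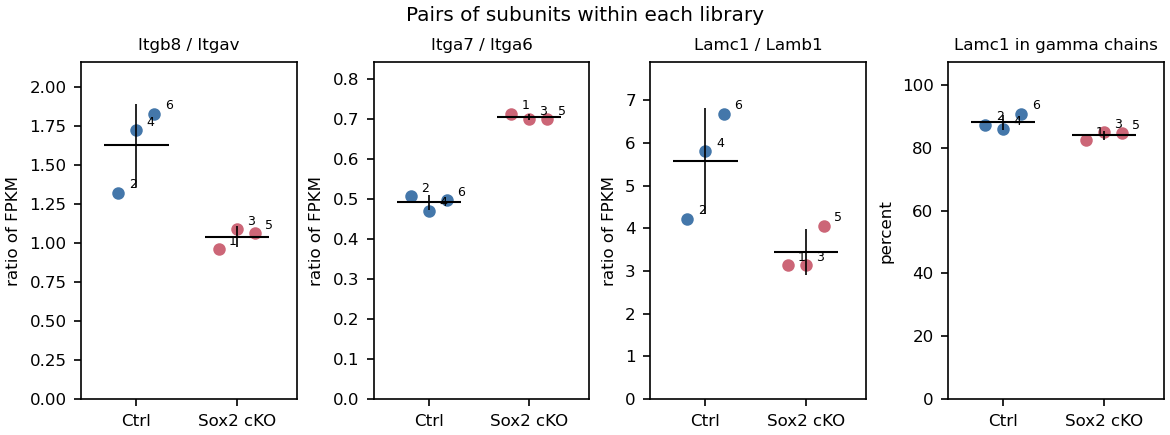
Ratios of FPKM of Itgb8 to Itgav, Itga7 to Itga6 and Lamc1 to Lamb1, and the percent of laminin gamma chain FPKM that came from Lamc1, in each library (blue Ctrl, red Sox2 cKO), with group mean and SD (n = 3). The groups overlap in none of the 4 plots. The ratio of Itga7 to Itga6 is higher in Sox2 cKO, and the other 3 quantities are lower. These 4 were picked from the 18 quantities computed, of which others overlap, such as Itgb5 over Itgav and Lamc1 over Lamb2. Each of the 4 has an exact permutation p of 0.1, adjusted to 0.225.

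The alpha subunits of collagen receptors, some of which also bind laminin, held 1 lower and 1 higher call. Itga10 (ENSMUSG00000090210), whose protein binds collagen with Itgb1, was at 4.26, 4.74 and 2.56 CPM in Ctrl and 7.16, 6.24 and 5.36 CPM in Sox2 cKO. No library overlapped, and its fold change of 0.69 (SE 0.22, edgeR adjusted p = 0.048) was just inside the threshold and became 0.84 with the length correction. Itga10 shares 1739 exon bases on the same strand with the gene model Gm42957, which has no deposited count of its own. Itga2 (ENSMUSG00000015533) was counted only 12, 17 and 21 times in Ctrl and 7, 8 and 3 times in Sox2 cKO. Its fold change was -1.68 (SE 0.46, edgeR adjusted p = 0.0276), and its depth makes the size uncertain, with a 95% interval from -2.59 to -0.78. Itga1 and Itga11, named after their values were seen, had fold changes of -0.40 and -0.10 (edgeR adjusted p = 0.083 and 0.83).

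Itga9 (ENSMUSG00000039115), a receptor subunit for tenascin-C, osteopontin and VCAM1, was at 17.3, 21.9 and 23.8 CPM in Ctrl and 10.7, 12.4 and 14.5 CPM in Sox2 cKO. All Sox2 cKO libraries were lower, with a log2 fold change of -0.74 (SE 0.15, edgeR adjusted p = 0.0132) or -0.47 with the length correction (edgeR adjusted p = 0.030). This was the largest fall among members with over 50 reads in every library. Itga4, the related subunit for fibronectin and VCAM1, named after its values were seen, had a fold change of -0.18 (edgeR adjusted p = 0.46).

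Of the 6 leukocyte subunits tested, edgeR and DESeq2 each called 0, and 1, Itgad, had an unadjusted p below 0.05 in edgeR. Itgam (ENSMUSG00000030786), which with Itgb2 forms the complement receptor of microglia and neutrophils, was at 16.4, 22.7 and 25.4 CPM in Ctrl and 20.7, 19.4 and 16.3 CPM in Sox2 cKO. Its groups overlapped, with a fold change of -0.19 (95% interval -0.50 to 0.11, edgeR adjusted p = 0.38). Itgam shares 3450 exon bases with the gene model Gm49368, which likewise has no deposited count. Itgb2 was at 6.86, 4.66 and 7.34 CPM in Ctrl and 8.61, 5.73 and 5.55 CPM in Sox2 cKO, a fold change of 0.07 (95% interval -0.36 to 0.51, edgeR adjusted p = 0.82). Itgad, named after its values were seen, was counted 13, 21 and 17 times in Ctrl and 26, 34 and 61 times in Sox2 cKO (fold change 1.01, edgeR adjusted p = 0.064). Restricted to genes with at least 10 counts in every library, edgeR called it higher, which made 4 integrins lower and 2 higher. It shares 70 exon bases with Cox6a2 on the opposite strand, and whether counting used the strand is not stated. Beside these genes, all 5 neutrophil markers tested of 7 were higher in Sox2 cKO, with summed levels of 12.02 to 18.7 CPM in Ctrl and 22.1 to 69.8 CPM in Sox2 cKO. With the length correction 3 of the 5 were called higher. Of the 8 microglia and macrophage markers 1 was higher by edgeR, with sums of 265.1 to 305.5 CPM in Ctrl and 225.6 to 320.4 CPM in Sox2 cKO. DESeq2 called 2 of these 8 lower and 2 higher. None of these markers was at 0 in all libraries, and their part in the leukocyte subunits was not tested. The platelet list, of which Itga2b is itself a member, had 1 of 3 genes tested higher, and its sums were 5.26 to 8.39 CPM and 6.84 to 10.7 CPM.

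**Figure D5:**
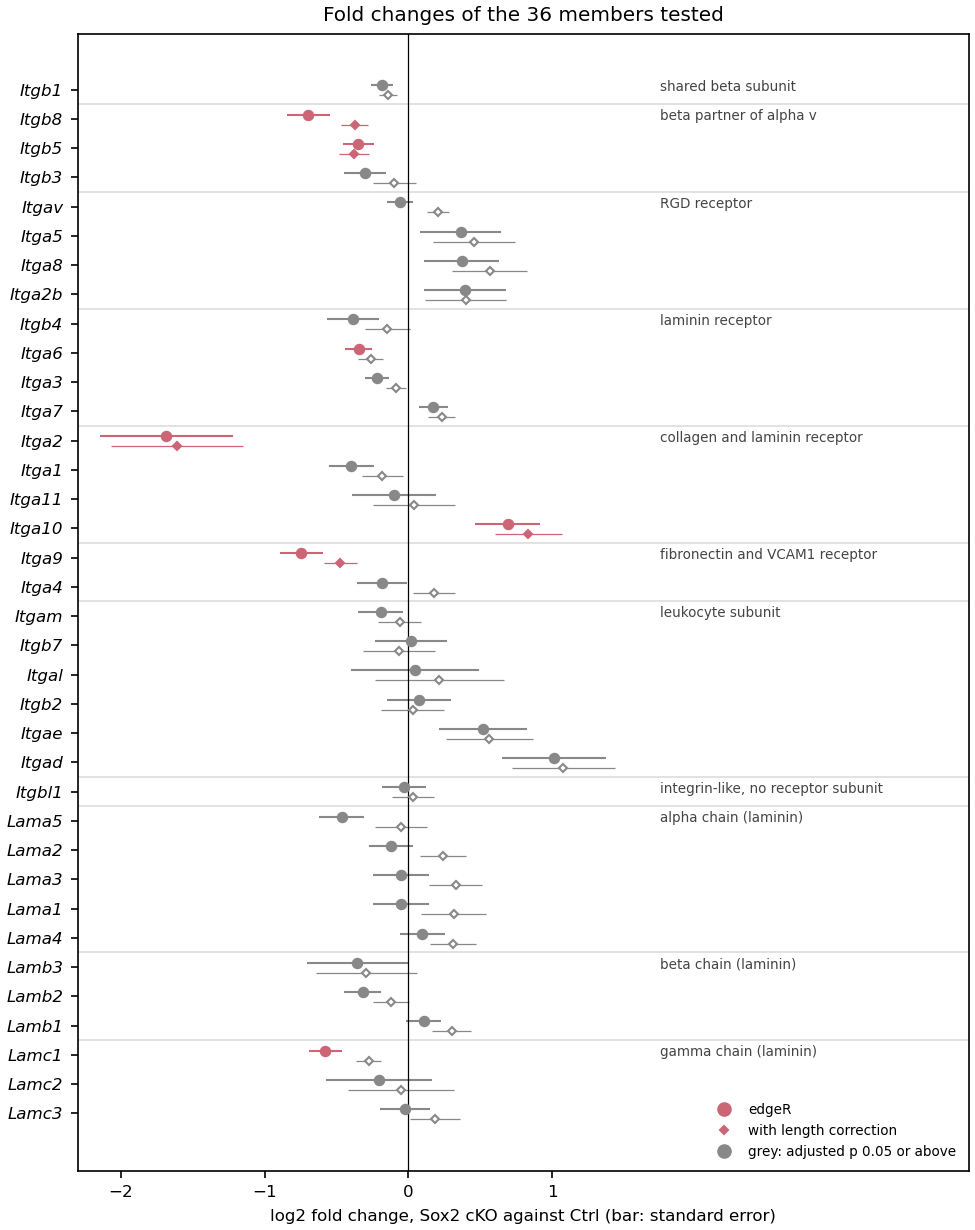
Log2 fold changes of the 36 members tested, Sox2 cKO against Ctrl, grouped by role, from edgeR (circles) and with the length correction (diamonds), with bars for the SE and red for an adjusted p below 0.05. The 3 subunits grouped as beta partners of alpha v all lie below 0 in both fits. Of all 36 members, 24 lie below 0 from edgeR and 17 with the correction. Itga10 lies above 0 in both, and the 5 laminin alpha chains move up with the correction.

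Among the laminin chains, Lamc1 was the only gene called by edgeR. Lamc1 (ENSMUSG00000026478), the gamma chain of most laminins, on the minus strand of chromosome 1 from 153218922 to 153332786, was at 65.3, 82.1 and 86.8 CPM in Ctrl and 51.5, 47.9 and 57.5 CPM in Sox2 cKO. The groups did not overlap, with a log2 fold change of -0.58 (SE 0.11, edgeR adjusted p = 0.0130), so that the level fell by 33.0%. With the length correction the fold change became -0.28 and was not called (edgeR adjusted p = 0.064). Lamc3, a gamma chain of few laminins, was at 4.89, 6.40 and 5.65 CPM in Ctrl and 6.24, 4.61 and 5.86 CPM in Sox2 cKO, a fold change of -0.03 (edgeR adjusted p = 0.93). Lamc1 made up 86.0% to 90.8% of the FPKM of the 3 gamma chains in Ctrl and 82.3% to 84.9% in Sox2 cKO, without overlap (exact permutation p = 0.1). The FPKM of the gamma chains together was 11.2 ± 1.27 in Ctrl and 8.45 ± 0.717 in Sox2 cKO (SD, n = 3).

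The beta chains were not called. Lamb2, the chain of the vascular and pial basement membranes and of synaptic laminins, was at 46.5, 62.5 and 54.6 CPM in Ctrl and 51.0, 38.6 and 42.0 CPM in Sox2 cKO, which overlapped through Sox2 cKO library 1 (fold change -0.32, edgeR adjusted p = 0.096). Lamb1, the chain of the first laminins to be made in development, was at 11.7, 10.7 and 9.85 CPM in Ctrl and 12.5, 11.6 and 10.7 CPM in Sox2 cKO (fold change 0.11, 95% interval -0.13 to 0.35, edgeR adjusted p = 0.55). Lamc1 over Lamb1 in FPKM was 4.23, 5.81 and 6.69 in Ctrl and 3.13, 3.13 and 4.07 in Sox2 cKO, so the 2 chains differed in their change without overlap of the groups (exact permutation p = 0.1, adjusted 0.23 over the 18 quantities). Lamc1 over Lamb2 overlapped between groups, with means of 1.06 and 0.890 (exact permutation p = 0.2). The exonic lengths of Lamc1, Lamb1 and Lamb2 are 7622, 5784 and 5624 bases.

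Of the 5 alpha chains, which set the receptor a laminin binds, 0 were called by edgeR, 1 had an unadjusted p below 0.05, and DESeq2 called that one, Lama5. Lama5, an alpha chain of mature vessels, was at 9.06, 10.6 and 10.3 CPM in Ctrl and 8.70, 7.10 and 5.97 CPM in Sox2 cKO, lower in every library (fold change -0.46, SE 0.16, edgeR adjusted p = 0.055, DESeq2 adjusted p = 0.037). With an exonic length of 11388 bases it is the longest member, and its fold change was -0.05 with the length correction. Lama2, the alpha chain that astrocytes and fibroblasts lay down at the vessel and the pia, was at 13.7, 17.8 and 11.4 CPM in Ctrl and 13.5, 13.6 and 12.5 CPM in Sox2 cKO (fold change -0.12, 95% interval -0.42 to 0.18, edgeR adjusted p = 0.60).

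Lama4, the chain of endothelial laminin, was at 8.61, 9.64 and 6.61 CPM in Ctrl and 9.40, 8.53 and 8.76 CPM in Sox2 cKO (fold change 0.10, edgeR adjusted p = 0.67). Lama1, made by meningeal cells, was at 6.33, 7.48 and 5.46 CPM in Ctrl and 7.91, 5.66 and 5.14 CPM in Sox2 cKO (fold change -0.05, edgeR adjusted p = 0.87). The signs of Lama1 and Lama2 turned with the length correction, to 0.32 and 0.24, and neither was called. In FPKM, Lama4 gave 27.1% to 31.2% of the alpha chains in Ctrl and 32.2% to 35.2% in Sox2 cKO, and Lama5 gave 16.8% to 22.5% and 12.7% to 15.8%, each without overlap (exact permutation p = 0.1 for each, adjusted 0.23 over the 18 quantities). The exonic length of Lama4 is 6046 bases and that of Lama5 is 11388. With the length correction Lama4, Lama1 and Lama3, the last named after its values were seen, had fold changes of 0.31, 0.32 and 0.33, and none was called. The summed FPKM of the alpha chains was 4.55 ± 0.757 in Ctrl and 4.58 ± 0.480 in Sox2 cKO. The 9 endothelial markers had sums of 230.3 to 258.4 CPM in Ctrl and 234.7 to 338.3 CPM in Sox2 cKO with 1 higher, and the 8 meningeal fibroblast markers had 272.0 to 655.9 and 494.4 to 620.6 CPM with 1 lower. The lowest meningeal sum was in Ctrl library 6, which was also the lowest library for Lama1 among Ctrl, and the part of either cell type was not tested.

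Beside the members that fell, the markers of astrocytes given above and of oligodendrocyte precursors were lower too. Of the 8 precursor markers 4 were lower and 0 higher, with sums of 712.7 to 756.6 CPM in Ctrl and 563.7 to 615.2 CPM in Sox2 cKO. Pdgfra is in this list and in that of meningeal fibroblasts, so the counts of these lists share a gene. Among all genes tested 12.4% were lower. With the length correction 2 of the 10 astrocyte markers and 3 of the 8 precursor markers were called lower, beside 6.99% of all genes. Of the 6 ependymal markers 2 were lower, and 1 with the length correction. The 7 oligodendrocyte markers had 0 calls by edgeR, while DESeq2 called 3 of them lower and edgeR with the length correction 2. No marker of these lists was at 0 in all libraries, and their part in the fall of Itgb8, Itga9, Itga6, Itgb5 or Lamc1 was not tested. The 8 mural markers had 1 higher, the 8 neuron markers 1 higher and the 7 Schwann markers 0 calls by edgeR. Of the Schwann markers, DESeq2 called 1 lower and edgeR with the length correction 2. Vtn is in the mural list and also among the ligands of integrins below.

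The number of calls by edgeR moved with the library left out, over all genes as over the members. It called 8 of 16482 genes without Sox2 cKO library 1, 26 of 16373 without Ctrl library 4 and 6119 of 16590 without Ctrl library 2. Leaving out Sox2 cKO library 1 or Ctrl library 4, edgeR called 0 members, with an adjusted p of 0.066 to 0.069 for Itgb8, Itga9 and Lamc1, while 13 and 9 members had an unadjusted p below 0.05 and DESeq2 called 7 and 4 members. The fold change of Itgb8 was -0.56 and -0.67 in these edgeR fits. Without Ctrl library 6, Sox2 cKO library 3 or Sox2 cKO library 5, edgeR called Itgb8, Itga9 and Lamc1 and no other member. Without Ctrl library 2 it called all 7 and a further 6 members. In DESeq2 fits that left out a library, added after the data were seen, Itgb8, Itga9 and Lamc1 were called in 6 of 6 fits, Itga6 and Itga10 in 3 and Itgb5 in 2. All 7 called members kept their direction in each of the 6 edgeR fits and the 6 DESeq2 fits.

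Genes of the same pathway were taken from 4 lists chosen by role. Of the 11 basement membrane partners 1 was lower and 1 higher, with a median log2 fold change of 0.07. Dag1, the dystroglycan that links laminin to the cell as a receptor outside the integrins, was at 72.9, 84.0 and 78.1 CPM in Ctrl and 53.6, 66.5 and 61.7 CPM in Sox2 cKO (fold change -0.37, edgeR adjusted p = 0.023). Agrn, the proteoglycan agrin of the basement membrane, was at 130.6, 119.0 and 113.7 CPM in Ctrl and 168.8, 152.9 and 131.3 CPM in Sox2 cKO (fold change 0.32, edgeR adjusted p = 0.048). The groups overlapped in neither of them. Col4a2, a collagen IV chain, had a fold change of 0.30 (edgeR adjusted p = 0.054), and Bcam and Col4a1 had 0.07 and -0.01 (edgeR adjusted p = 0.72 and 0.95). With the length correction 1 was lower, Dag1 with -0.28 (edgeR adjusted p = 0.046), and 3 were higher, namely Agrn with 0.64, Col4a2 with 0.55 and Col18a1, named after its values were seen, with 0.67 (edgeR adjusted p = 0.026, 0.026 and 0.037).

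Among 15 ligands of integrins, 3 were lower and 1 higher, with a median of 0.14. Tnc, the matrix protein tenascin-C and a ligand of Itga9, was at 6.59, 5.86 and 6.76 CPM in Ctrl and 3.29, 3.62 and 3.74 CPM in Sox2 cKO (fold change -0.85, edgeR adjusted p = 0.0126). Tnr, tenascin-R, was at 45.2, 63.0 and 64.5 CPM in Ctrl and 15.5, 29.8 and 32.2 CPM in Sox2 cKO (fold change -1.15, edgeR adjusted p = 0.0136). Thbs2, thrombospondin 2, had a fold change of -0.54 (edgeR adjusted p = 0.0124), and Thbs1 and Icam2 had 0.09 and 0.11 (edgeR adjusted p = 0.85 and 0.80). The ligand that rose, named after its values were seen, was Spp1, osteopontin, at 170.2, 142.7 and 119.6 CPM in Ctrl and 208.9, 221.0 and 207.7 CPM in Sox2 cKO (fold change 0.56, edgeR adjusted p = 0.0145). Corrected for length, Spp1 was at 0.32 and was not called (edgeR adjusted p = 0.052). Tnc, Tnr and Thbs2 were still called with -0.58, -1.06 and -0.34 (edgeR adjusted p = 0.039, 0.022 and 0.026). With this correction 1 ligand was called higher, Fbln5, named after its values were seen. It was at 0.68 (edgeR adjusted p = 0.042), from 0.48 before the correction (edgeR adjusted p = 0.067).

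Inside the cell, 4 of 22 adhesion adaptors tested were lower and 1 higher, with a median of -0.09. Of the other 2 genes listed, Ilk was at 0 in all libraries and Fermt1 did not pass the filter. Whether the 0 of Ilk came from its expression or from how reads were counted was not tested. Tln1, the talin that switches integrins on, had a fold change of -0.54 (edgeR adjusted p = 0.0145), as did Src, a kinase of adhesion sites, with -0.48 and Tns1, tensin 1, with -0.57 (edgeR adjusted p = 0.0146 and 0.0154). Tln2 was lower and Cib1 higher, both named after their values were seen, while Lims1 and Parvg had -0.08 and 0.01 (edgeR adjusted p = 0.51 and 0.96). With the length correction only Src was called in this list, with -0.43, and the exonic lengths of Tln1, Tln2 and Tns1 are 8393, 12132 and 9966 bases.

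Of 10 genes for TGF-beta and its activation, 2 were lower and 0 higher, with a median of -0.10. Tgfb2, a latent cytokine, was at 13.2, 16.6 and 20.6 CPM in Ctrl and 10.3, 10.9 and 10.7 CPM in Sox2 cKO (fold change -0.66, edgeR adjusted p = 0.0173). Ltbp4, which holds latent TGF-beta in the matrix, had a fold change of -0.38 (edgeR adjusted p = 0.046), and Tgfb3 had -0.29 (edgeR adjusted p = 0.072). Corrected for length, Ltbp4 was at -0.21 and was not called (edgeR adjusted p = 0.21), while Tgfb2 was still called with -0.54 (edgeR adjusted p = 0.037). Ltbp3 and the receptor Tgfbr2 had -0.03 and 0.04 (edgeR adjusted p = 0.83 and 0.81). Over the 4 lists together, 10 of 57 genes tested were lower, or 17.5%, and 3 were higher, or 5.26%, to be read against 12.4% and 12.2% of all genes. The median over these 57 genes was 0.04.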

How the data were processed

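Poly(A) RNA of whole spinal cord was measured in 3 Sox2 cKO and 3 Ctrl libraries. Per the labels, the authors prepared libraries with a directional kit, aligned reads with STAR 2.5 to mm10 and counted them per gene with HTSeq 0.6.1. The deposited counts are not normalized. The authors also deposited FPKM, made from the same counts with a length for each gene, and from these the exonic lengths were recovered. Whether counting used the strand is not given in the sources used here. RNA integrity was above 6.8 per the labels, and the methods state a higher minimum.

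The columns carry numbers and no sample names. Groups were taken from the odd and even numbers. Group means of normalized counts matched those listed by the study for 1999 of 1999 genes within a relative tolerance of 1e-04, and for 0 with the groups exchanged. The tables held 0 unused columns of samples. The chi-square per degree of freedom was 6.74 to 83.4 over the 15 pairs of libraries, so none was a copy.

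Differential expression was computed from the counts with edgeR 4.0.16 in R 4.3.3 (filterByExpr, TMM, quasi-likelihood test, Benjamini-Hochberg at 0.05, no covariate). Names and positions came from GENCODE M21, with 34490 of 35275 identifiers matched. Alternatives were DESeq2 1.42.0, other normalization and filters, a lowess correction for length with a span of 0.3 in each library, limma 3.58.1 on log2(FPKM + 1) and log2(FPKM + 0.1) where the mean FPKM reached 0.5, and fits without each library. Intervals are the fold change ± 1.96 SE. Tested on simulated data, edgeR recovered 99.0% of changed genes among 16189, and 3.9% of its calls were unchanged genes. With a simulated length trend over 16307 genes, 90.8% of its calls were unchanged genes, against 4.3% with the length correction. The sizes set for the changes and for the trend are not given here. Whether these rates hold for the calls made from the deposited counts was not tested.

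The members, lists and tests were chosen with earlier results of these data known. Named are all members called, 16 subunits fixed by name (Itgb1, Itgb5, Itgb8, Itgav, Itga6, Itga7, Itgam, Itgb2, Lama1, Lama2, Lama4, Lama5, Lamb1, Lamb2, Lamc1 and Lamc3), and up to 3 genes with the lowest and 2 with the highest adjusted p of each partner list.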

Additional observations from a re-analysis of the deposited data

How the results depend on the processing

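No paired analysis was possible because the columns carry no sample names and the sources used here do not say which mice were littermates. Without a library, counts of all genes called ranged from 8 to 6119 in edgeR and from 1981 to 5624 in DESeq2, of integrins from 0 to 10 and 2 to 10, of laminins from 0 to 3 and 1 to 3, and of partner genes from 0 to 17 and 10 to 16. Sox2 ranged from -3.07 to -2.56 in edgeR and from -3.08 to -2.57 in DESeq2. The length correction called 2109 genes, 5 integrins and 0 laminins. DESeq2 and edgeR without a filter on low counts each called 2 laminins. With limma on log2(FPKM + 1) or log2(FPKM + 0.1), 2 integrins were called, and higher genes were 2670 of 3585 and 2614 of 3510 called. Without a filter, limma on log2(FPKM + 1) called 7 genes, 0 integrins, 0 laminins and 0 partner genes, with 6765 genes and 8 members at an unadjusted p below 0.05, and Sox2 at -2.11 (limma adjusted p = 0.057).

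Signs turned only for members that were not called. Itgav was 0.20 with the length correction and 0.03 in the limma fits. Lama1 was 0.32 with the length correction and 0.02 or 0.04 in the limma fits, Lama2 was 0.24 with the length correction, and Lamc3 was 0.18 there, 0.02 with upper quartile normalization and 0.04 or 0.07 in the limma fits. Over the edgeR and DESeq2 fits without a library, Itgav ranged from -0.14 to 0.03, Itgb2 from -0.16 to 0.20, Lama1 from -0.26 to 0.08, Lama2 from -0.27 to 0.07, Lama4 from -0.05 to 0.22 and Lamc3 from -0.13 to 0.10. The cause was not tested. Itga2, Itgad and the 2 genes under the filter are limited by depth.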
